A study of Mus musculus with 12 samples.

Results

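The genes of the hedgehog pathway were followed through 12 arrays of mouse granulosa cells: the ligand genes Dhh and Ihh, the receptor gene Ptch1, the signal transducer gene Smo, the ligand-binding antagonist gene Hhip, the transcription factor genes Gli1, Gli2 and Gli3, and Sufu, which encodes the protein that holds Gli factors in the cytoplasm. They were taken from all 34945 probe sets that name a single gene, by gene symbol, and make up 9 of 18193 genes and 22 of these probe sets. The set was selected on the knockout against wild-type differences of Hhip, Gli2 and Dhh, so every comparison of knockout with wild type below is a description of these genes, without a test. The response to hCG averaged over both genotypes uses no genotype difference and was tested for all 22 probe sets. It is built from the same arrays. For Hhip and Dhh it rests largely on the low wild-type group of each gene, which also sets the genotype difference. Its p is thus no separate support for that difference.

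Hedgehog proteins are secreted lipid-modified signals. In their absence Ptch1 keeps Smo inactive, and when a ligand binds Ptch1 this block is lifted, Smo gathers in the primary cilium, and the Gli factors pass to the nucleus. Gli1, Ptch1 and Hhip are themselves induced by the signal, and Hhip, like Ptch1, binds the ligands and dampens it. In the mouse ovary the granulosa cells of growing follicles are the source of Dhh and Ihh, and the surrounding theca and stroma cells are known as the responding cells, in which Gli1 and Ptch1 are expressed.

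The groups were Inha-/- and wild-type mice after PMSG and hCG, and Inha-/- and wild-type mice after PMSG alone, with 3 arrays each. Inha encodes the inhibin alpha subunit. All mice were 21 days old, of the strain background C57BL/6J;129S5/SvEvBrd, and carried follicles stimulated for 44 to 46 h by PMSG (pregnant mare serum gonadotropin, 5 IU), a stand-in for follicle-stimulating hormone. In the hCG groups 5 IU of hCG (human chorionic gonadotropin), a substitute for the ovulatory surge of luteinizing hormone, then acted for 6 h. Cells were freed by puncturing antral follicles and were not sorted, the labels name no conditional allele, and the sources used here do not say whether a sample held 1 mouse or a pool. The design text calls the triplicates independent. Where cells of another type are present in such a sample, fewer cells of a type and less RNA per cell cannot be told apart.

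Each value is a log2 expression value centred on the median of its probe set over the 12 arrays. A value of 0 is thus the middle array, a value of 1 is 2-fold above it, and levels of different genes cannot be compared. Presence above background was not analysed here, and where a group reads very low, a fold against it does not compare measured levels. Array medians lay between -0.0197 and 0.093, and the precision is limited by the number of arrays. The SD over probe sets was 0.727 on replicate 3 of wild type after hCG, and 0.371 was the lowest of the 12. The centred value of Inha lay between -7.40 and -5.40 on the knockout arrays and between 5.40 and 5.87 on the wild-type arrays; the sources used here do not say which part of Inha the probe set reads. By serial number 7 arrays are early and 5 are late. Late numbers belong to replicates 2 and 3 of both genotypes after hCG and replicate 3 of the knockout after PMSG, so hCG and a late serial number are largely confounded, and values within each set are given where they bear on a result. The early set holds 1 hCG array per genotype, so a p within it takes the spread from the PMSG groups and assumes that the lone hCG arrays vary alike.

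The promoters of Hhip and the repressor gene Gli3 are shown because both read higher in wild type after hCG than after PMSG alone. These are readings of their most variable probe sets, whose differences with hCG in the knockout were -0.13 and 0.33. The windows run from 250 bases before to 50 bases after a transcript start, as tabulated from RefSeq, build GRCm38.p6. For Hhip and Dhh that start lies inside the annotated gene span, and for Gli3 and Ihh at its edge. The Hhip window is chr8:80057959-80058258 on the minus strand, in a gene annotated from 79965850 to 80058060 on chromosome 8. The Gli3 window is chr13:15463473-15463772 on the plus strand, in a gene annotated from 15463723 to 15730026 on chromosome 13. Capitals mark the cAMP response element TGACGTCA and the GC box GGGCGG, or CCGCCC on the other strand.
Hhip: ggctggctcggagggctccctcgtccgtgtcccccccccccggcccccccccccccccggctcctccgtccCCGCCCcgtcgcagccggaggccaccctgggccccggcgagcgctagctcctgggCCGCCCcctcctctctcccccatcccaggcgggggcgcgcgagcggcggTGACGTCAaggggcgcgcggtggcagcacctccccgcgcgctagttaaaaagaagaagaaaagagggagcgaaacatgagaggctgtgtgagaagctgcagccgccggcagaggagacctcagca
Gli3: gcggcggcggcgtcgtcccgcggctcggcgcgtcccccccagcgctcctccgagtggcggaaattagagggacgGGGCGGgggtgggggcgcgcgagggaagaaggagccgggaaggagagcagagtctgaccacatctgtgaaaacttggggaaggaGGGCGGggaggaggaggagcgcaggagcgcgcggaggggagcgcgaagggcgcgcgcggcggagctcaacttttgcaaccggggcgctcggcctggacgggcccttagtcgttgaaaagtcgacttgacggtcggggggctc
The cAMP response element was found in the Hhip window, 75 bases upstream of the transcript start of that window. It was present in 1 of the 8 windows held for these genes and in 1.79% of 32851 mouse promoter windows of the same length. The GC box was found in 7 of the 8 windows and in 35.7% of all windows. The Gli binding site GACCACCCA, searched on both strands, was in 0 of the 8 windows and in 0.253% of all, and its shorter core ACCACCC, which lies within it, was in the Gli2 window alone and in 4.61% of all. These motifs were chosen after the values had been seen, and a match of letters is a description and not a binding site.

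Hhip was low in 1 of the 4 groups. Its most variable probe set read -0.45, 1.45 and 0.90 in the knockout after hCG, against -0.20, -0.025 and 0.91 in wild type after hCG. It read 0.025, 0.85 and 1.43 in the knockout after PMSG alone, and -5.01, -3.48 and -5.31 in wild type after PMSG alone. The 3 wild-type arrays after PMSG thus stood far below the other 9, which overlap among their groups. The knockout exceeded wild type by 5.37 ± 0.63 (SE, log2) after PMSG, or 41.3-fold, and by 0.40 ± 0.63 after hCG. In wild type hCG raised the value by 4.83 on the log2 scale, while in the knockout the mean difference between hCG and PMSG alone was -0.13. The other 3 probe sets of Hhip showed the same low group, with differences between knockout and wild type after PMSG of 4.75, 4.69 and 3.70.

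Averaged over both genotypes, Hhip rose with hCG by 2.35 ± 0.45 on the log2 scale (SE, limma adjusted p = 0.0104, adjusted over all 34945 probe sets). The other probe sets gave 2.23 (limma adjusted p = 0.016), 2.15 (limma adjusted p = 0.00546) and 2.00, of which the last did not pass (limma adjusted p = 0.0654). With the array serial number as a covariate the rise of the first probe set was 1.81 (limma adjusted p = 0.0344), and the call of the second was lost there (limma adjusted p = 0.0653) and with the number in the array names as a random block (limma adjusted p = 0.0643). On the 7 early arrays, which hold 1 hCG array per genotype, it was 1.76 and did not pass (limma adjusted p = 0.207), while the wild-type difference was 4.41 there. The average joins a large difference in wild type with one near 0 in the knockout. That contrast between the genotypes was not tested, since it is made of the comparisons by which Hhip was chosen.

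**Figure D1:**
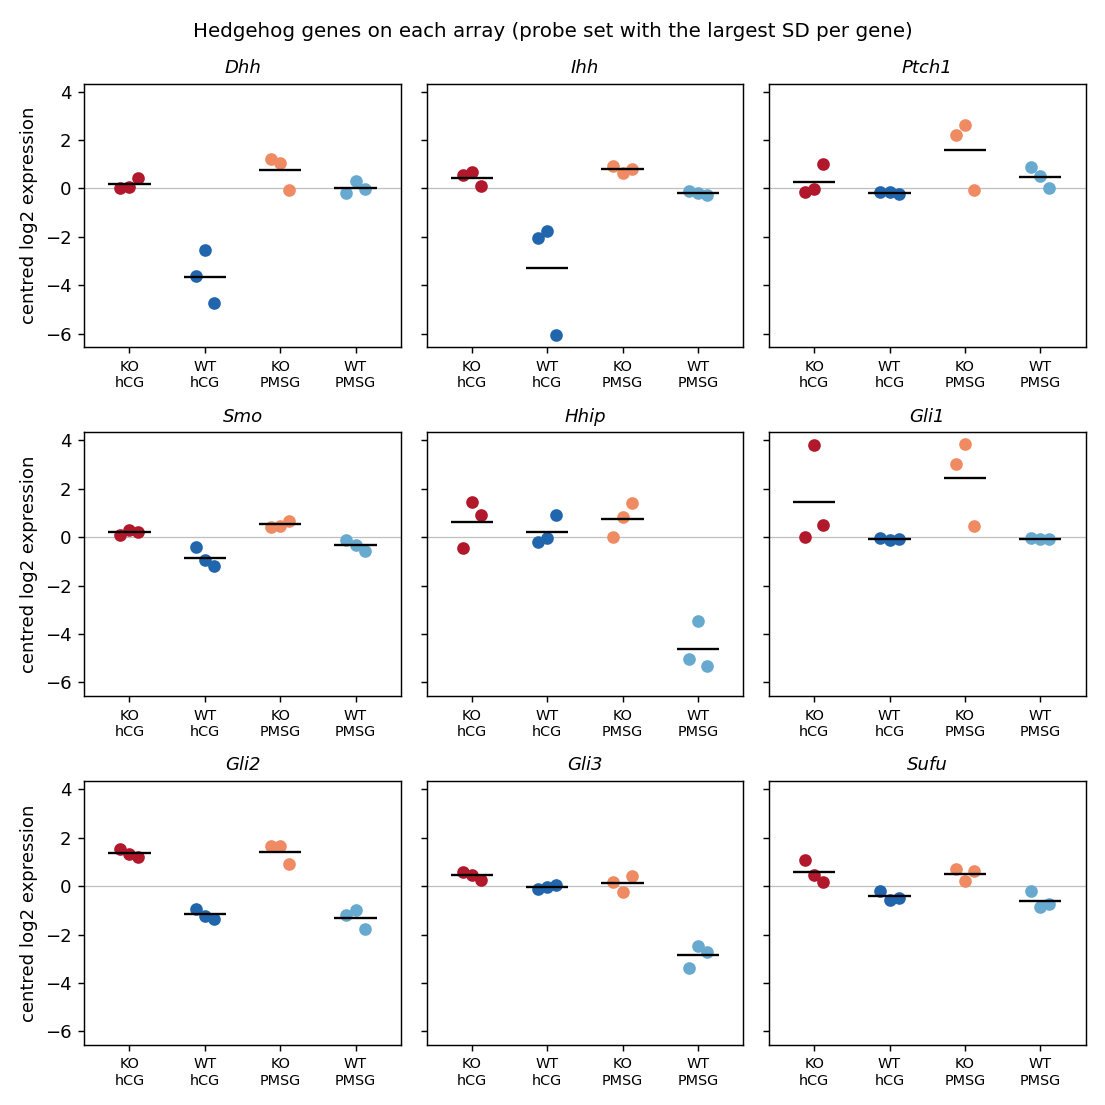
Centred log2 expression of the 9 hedgehog genes on each of the 12 arrays, each shown by its most variable probe set. Each point is an array, the bar is the mean of 3, and the groups are knockout (KO) and wild type (WT) after hCG, then after PMSG alone. Hhip and Gli3 are low in wild type after PMSG alone, Dhh and Ihh are low in wild type after hCG, and all 6 knockout arrays of Gli2 lie above all 6 wild-type arrays.

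Gli3 encodes the Gli factor that acts mainly as a repressor when no ligand is present. On its first probe set it read 0.58, 0.47 and 0.27 in the knockout after hCG, and -0.13, -0.052 and 0.052 in wild type after hCG. After PMSG alone the values were 0.16, -0.23 and 0.41 in the knockout and -3.37, -2.49 and -2.73 in wild type. As for Hhip, the 3 wild-type arrays after PMSG alone lay below all others, by more than 2 log2 units from the next array.

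Gli3 rose with hCG by 1.57 ± 0.16 averaged over both genotypes (SE, limma adjusted p = 0.000336). In wild type the rise was 2.82 ± 0.22, or 7.07-fold, without overlap between the arrays (limma adjusted p = 8.17e-05). In the knockout the difference was 0.33 ± 0.22 (limma adjusted p = 0.81). A second probe set of Gli3 rose by 1.66 on average (limma adjusted p = 0.00129) and by 2.52 in wild type (limma adjusted p = 0.00084), with 0.80 in the knockout (limma adjusted p = 0.399). The third, with an SD of 0.0697 over the arrays, differed by 0.010 (limma adjusted p = 0.937). On the 7 early arrays the first probe set differed by 2.74 in wild type, with 1 array after hCG, and its average of 1.68 did not pass (limma adjusted p = 0.0668). The genotype difference was 2.98 after PMSG and 0.48 after hCG on the first probe set, and 2.27 and 0.55 on the second.

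The ligand genes showed the other pattern, with the low group in wild type after hCG. Their promoters, from RefSeq build GRCm38.p6, are set side by side because both genes are low on the same 3 arrays. The Dhh window is chr15:98898491-98898790 on the minus strand, in a gene annotated from 98881615 to 98898562 on chromosome 15. The Ihh window is chr1:74951623-74951922 on the minus strand, in a gene annotated from 74945315 to 74951672 on chromosome 1. Capitals again mark the GC box, which occurs 4 times in the Dhh window and 2 times in that of Ihh; TGACGTCA was found in neither.
Dhh: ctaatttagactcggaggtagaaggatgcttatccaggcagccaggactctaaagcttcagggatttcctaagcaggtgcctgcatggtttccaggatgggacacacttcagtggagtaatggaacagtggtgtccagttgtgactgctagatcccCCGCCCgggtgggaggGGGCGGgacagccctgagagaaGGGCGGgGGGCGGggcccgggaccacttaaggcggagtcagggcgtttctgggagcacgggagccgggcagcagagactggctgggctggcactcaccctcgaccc
Ihh: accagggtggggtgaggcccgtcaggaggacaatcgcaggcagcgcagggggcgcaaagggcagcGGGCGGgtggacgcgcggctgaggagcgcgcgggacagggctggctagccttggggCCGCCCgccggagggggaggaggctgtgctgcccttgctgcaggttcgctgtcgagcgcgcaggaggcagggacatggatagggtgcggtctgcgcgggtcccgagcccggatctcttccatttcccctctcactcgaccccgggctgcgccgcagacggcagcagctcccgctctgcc

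Dhh, the desert hedgehog gene, read 0.024, 0.068 and 0.41 in the knockout after hCG, against -3.63, -2.55 and -4.73 in wild type after hCG. With PMSG alone the arrays gave 1.23, 1.07 and -0.056 in the knockout and -0.17, 0.30 and -0.024 in wild type. The 3 wild-type arrays after hCG lay below the other 9. The knockout stood 3.81 ± 0.51 (SE, log2) above wild type after hCG, or 14.0-fold, and 0.72 ± 0.51 above it after PMSG, where the arrays overlapped. In wild type the hCG difference was -3.67, while that of the knockout was -0.58. That knockout value was -1.13 on the early arrays and 0.30 on the late ones. The second probe set of Dhh gave 2.66 after hCG and 0.95 after PMSG for knockout against wild type, and all 6 knockout arrays lay above all 6 wild-type arrays.

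Averaged over both genotypes, the hCG difference of Dhh was -2.13 ± 0.36 on the log2 scale, a fall (SE, limma adjusted p = 0.00599). The average joins a difference of -3.67 in wild type with one of -0.58 in the knockout. It was -1.96 with the serial number as a covariate (limma adjusted p = 0.0283) and -2.40 on the early arrays alone (limma adjusted p = 0.01). It did not pass when the number in the array names was fitted as a random block (limma adjusted p = 0.0789). The second probe set fell by 1.26 (limma adjusted p = 0.0369), a call lost in 10 of the 12 fits that left out 1 array, with the serial number as a covariate (limma adjusted p = 0.0861) and with the random block (limma adjusted p = 0.275).

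Ihh, the Indian hedgehog gene, has 1 probe set. It read 0.57, 0.68 and 0.092 in the knockout after hCG, and -2.05, -1.76 and -6.06 in wild type after hCG. The PMSG arrays read 0.94, 0.63 and 0.80 in the knockout and -0.092, -0.18 and -0.26 in wild type. All 6 knockout arrays lay above all 6 wild-type arrays, and replicate 3 of wild type after hCG stood apart from its group. The average difference with hCG was -1.73 ± 0.65 and did not pass (SE, limma adjusted p = 0.135). In wild type it was -3.11 ± 0.92 (limma adjusted p = 0.0588) and in the knockout -0.34 (limma adjusted p = 0.883). Without replicate 3 of wild type after hCG, the wild-type difference was -1.73 (limma adjusted p = 0.00101) and the average was -1.04 (limma adjusted p = 0.00164), and both then passed. The wild-type difference was -2.66 with the serial number as a covariate (limma adjusted p = 0.189) and -2.92 with the random block (limma adjusted p = 0.307). It passed in 7 alternative fits and did not pass in 14. Knockout minus wild type was 3.74 after hCG, or 2.36 without replicate 3 of wild type after hCG, and 0.97 after PMSG. Across the 12 arrays, which share the 4 groups, the values of Dhh and Ihh correlated with r = 0.918.

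Gli2, the main activating Gli factor, differed by genotype and not detectably by hCG. Its first probe set read 1.54, 1.34 and 1.19 in the knockout after hCG, against -0.93, -1.22 and -1.36 in wild type after hCG. On PMSG alone the readings were 1.66, 1.64 and 0.93 in the knockout and -1.20, -0.97 and -1.79 in wild type. All 6 knockout arrays were above 0 and all 6 wild-type arrays below it. Knockout minus wild type was 2.52 ± 0.25 (SE, log2) after hCG and 2.73 ± 0.25 after PMSG, or 5.74-fold and 6.63-fold. The average hCG difference was 0.048 ± 0.18 (limma adjusted p = 0.921). The second probe set gave 1.97 after hCG and 2.06 after PMSG between genotypes, again without overlap of all 6 against all 6, and -0.46 for hCG (limma adjusted p = 0.273).

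Gli1, the Gli factor whose transcript is the usual readout of an active pathway, was high on some knockout arrays. It read 0.024, 3.80 and 0.52 in the knockout after hCG, and -0.024, -0.11 and -0.059 in wild type after hCG. Before hCG, after PMSG alone, it read 3.01, 3.84 and 0.47 in the knockout and -0.036, -0.088 and -0.076 in wild type. Every knockout array lay above every wild-type array, yet 1 of 3 after hCG and 2 of 3 after PMSG carried most of the difference. Knockout minus wild type was 1.51 ± 1.02 after hCG and 2.51 ± 1.02 after PMSG (SE). With single arrays left out these values ran between 0.34 and 2.22 after hCG and between 1.81 and 3.49 after PMSG. The average hCG difference was -0.50 ± 0.72 (limma adjusted p = 0.866). On the early arrays alone it was -1.68 and passed (limma adjusted p = 0.0479), with 1 knockout array after hCG at 0.024 against 2 after PMSG above 3.

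Ptch1, the receptor, read -0.16, -0.016 and 0.995 in the knockout after hCG, and -0.14, -0.14 and -0.24 in wild type after hCG. After PMSG alone its first probe set read 2.22, 2.62 and -0.067 in the knockout and 0.88, 0.50 and 0.016 in wild type. The high arrays were replicates 1 and 2 of the knockout after PMSG, on which Gli1 exceeded 3 as well. Gli1 also exceeded 3 on replicate 2 of the knockout after hCG, where this probe set of Ptch1 read -0.016. Knockout minus wild type was 0.44 ± 0.62 after hCG and 1.13 ± 0.62 after PMSG, with overlapping arrays in both. The average difference with hCG was -0.98 ± 0.44 (SE, limma adjusted p = 0.22); without replicate 3 of the knockout after PMSG it was -1.39 and passed (limma adjusted p = 0.00973). The other probe sets differed by -0.59 (limma adjusted p = 0.0909) and -0.22 (limma adjusted p = 0.832) with hCG. On the second of the 3 the knockout lay above wild type without overlap after both treatments, by 0.76 after hCG and by 0.95 after PMSG.

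Smo and Sufu showed smaller genotype differences, on some of their probe sets. The first probe set of Smo read 0.10, 0.30 and 0.23 in the knockout after hCG, against -0.41, -0.92 and -1.18 in wild type after hCG. Without hCG it read 0.42, 0.48 and 0.69 in the knockout and -0.10, -0.31 and -0.57 in wild type. All 6 knockout arrays were higher than all 6 wild-type arrays, with differences of 1.05 after hCG and 0.86 after PMSG (SE 0.19 each). A second probe set gave 0.81 and 0.60, with overlap after PMSG, and the third, a flat one, gave -0.003 and 0.13. Its average hCG difference was -0.42 ± 0.13 and did not pass (SE, limma adjusted p = 0.0791).

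The first probe set of Sufu read 1.08, 0.47 and 0.18 in the knockout after hCG, against -0.18, -0.58 and -0.49 in wild type after hCG. The groups after PMSG alone read 0.71, 0.21 and 0.64 in the knockout and -0.20, -0.86 and -0.76 in wild type. Here too the 6 knockout arrays stood above the 6 wild-type arrays, by 0.997 after hCG and 1.12 after PMSG (SE 0.26 each). The other probe sets of Sufu gave 0.76 and 0.24 after hCG without overlap, but -0.059 and 0.029 after PMSG with overlap. The average hCG difference of the first probe set was 0.12 ± 0.18 (limma adjusted p = 0.869).

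Over the whole group, 5 of the 22 probe sets rose with hCG on average (3 of Hhip, 2 of Gli3), 2 fell (both of Dhh) and 15 did not pass. Over all probe sets 6.21% rose and 5.63% fell. The median difference of the 22 was -0.013, against -0.016 over all probe sets. Within wild type the arrays after hCG lay above those after PMSG alone for 6 of the 22 and below them for 7, where 13.1% and 15.4% of all probe sets did so. Within the knockout the counts were 2 and 2, where 5.19% and 5.41% of all probe sets did so. Of the 22 probe sets, 19 had an SD over the arrays of at least 0.151; a probe set each of Smo, Gli3 and Sufu was flatter, and these 3 gave average hCG differences between -0.035 and 0.11.

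Between the genotypes the arrays did not overlap, with the knockout higher, for 13 of the 22 probe sets after hCG and for 14 after PMSG, and 0 were lower without overlap after either. Such a separation was found for 13.8% of all probe sets after hCG and for 10.1% after PMSG, with the knockout lower for 12.6% and 7.68%. The median difference of the 22 was 0.76 after hCG and 1.05 after PMSG, against -0.0008 and 0.039 over all probe sets. All 6 knockout arrays exceeded all 6 wild-type arrays on 7 of the 22 probe sets, of Dhh, Ihh, Smo, Gli1, Gli2 and Sufu, where 3.35% of all probe sets did so. Since genotype chose 3 of these genes, and both comparisons belong to that choice, nothing is read from these counts.

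**Figure D2:**
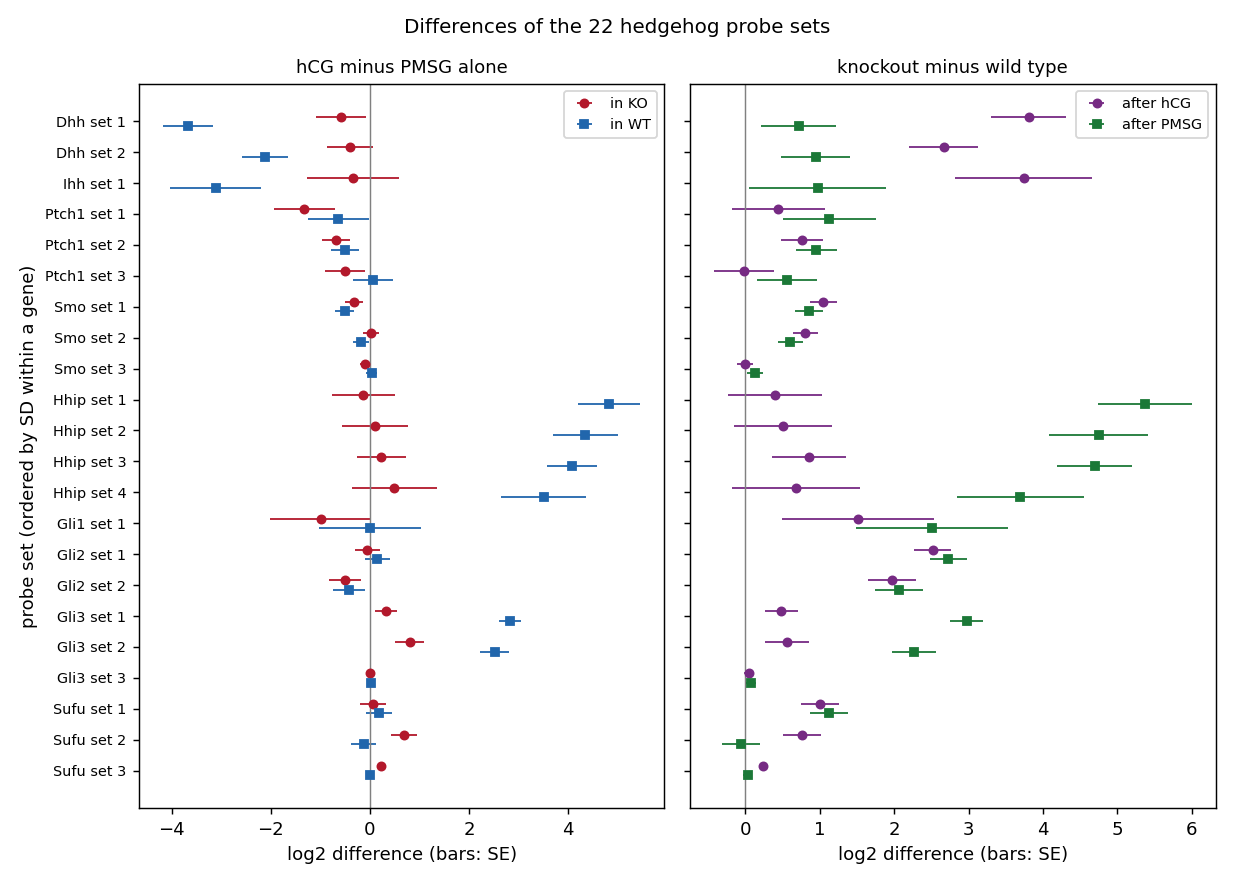
Log2 differences of all 22 probe sets with their SE, hCG minus PMSG alone in knockout (KO) and wild type (WT) on the left, and knockout minus wild type after hCG and after PMSG on the right. Hhip (4.83 for its first probe set) and Gli3 (2.82) are the large rises with hCG in wild type. Dhh (-3.67) and Ihh (-3.11) are the large falls. For these 4 probe sets the knockout point lies nearer to 0. It lies farther from 0 than the wild-type point for Gli1, for every probe set of Ptch1, and for some of Gli2, Smo and Sufu.

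Cells other than granulosa cells can be present in such samples, and their share was not measured. Genes listed as markers of such cells differed between genotypes too. Of 18 measured markers of theca and stroma, hCG-treated knockouts had 10 higher and 1 lower, and after PMSG 5 were higher and 2 lower in the knockout (limma adjusted p under 0.05). These compare with 7.79% and 5.47% of all genes higher and lower after hCG, and 1.7% and 1.64% after PMSG. The median of this list on single arrays was 0.080, 2.35 and 1.74 in the knockout after hCG, and -1.23, -0.57 and -0.49 in wild type after hCG. After PMSG it was 0.39, 1.20 and 1.501 in the knockout and -0.60, -0.71 and -0.34 in wild type. The smooth muscle genes Acta2 (2.74 after hCG, 2.21 after PMSG) and Myh11 (3.71 and 2.87) and the collagen gene Col3a1 (1.96 and 1.80) were among the higher ones. Cyp11a1, a steroid enzyme gene that granulosa cells express as well, was lower (-2.29 and -3.23). Cyp17a1, the androgen-producing enzyme of theca cells, had differences of -1.36 and -2.94 and was not called in either. The theca-specific peptide gene Insl3 has no single-gene probe set here, and with centred values no marker can be called absent.

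The highest array of Gli1 after hCG, replicate 2 of the knockout, also had the highest theca and stroma median of the 12. After PMSG the order differed, since replicate 3 of the knockout had the highest theca and stroma median of its group and the lowest Gli1. The part that theca and stroma RNA has in the genotype differences of Gli1, Gli2, Ptch1, Smo and Sufu was not tested.

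Other marker lists are given for the same reason. Oocyte markers were higher in the knockout for 10 of 15 genes after hCG, where 7.79% of all genes were, and for 3 of 15 after PMSG, where 1.7% were. Of 13 measured granulosa genes, 10 fell with hCG in wild type, among them Foxl2 (-3.97) and Fshr (-1.91), where 7.14% of all genes fell. In the knockout, where 0.137% of all genes fell with hCG, 0 were called by limma, with 0 at an unadjusted p under 0.05. Per array the granulosa median after hCG was -0.10, -0.055 and -0.068 in the knockout and -1.06, -0.85 and -2.18 in wild type, with the lowest value on the array where Dhh and Ihh were lowest. Its part in the falls of Dhh and Ihh was not tested. Surface epithelium genes were lower in the knockout for 4 of 9 after hCG and 5 of 9 after PMSG, where 5.47% and 1.64% of all genes were lower. Of 12 Sertoli cell genes 3 were lower after hCG and 2 after PMSG, and the endothelial gene Esam was lower after both treatments, the 1 call among 10 endothelial genes. Of 10 leukocyte genes 0 were called by limma between the genotypes, with 1 at an unadjusted p under 0.05 after each treatment.

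**Figure D3:**
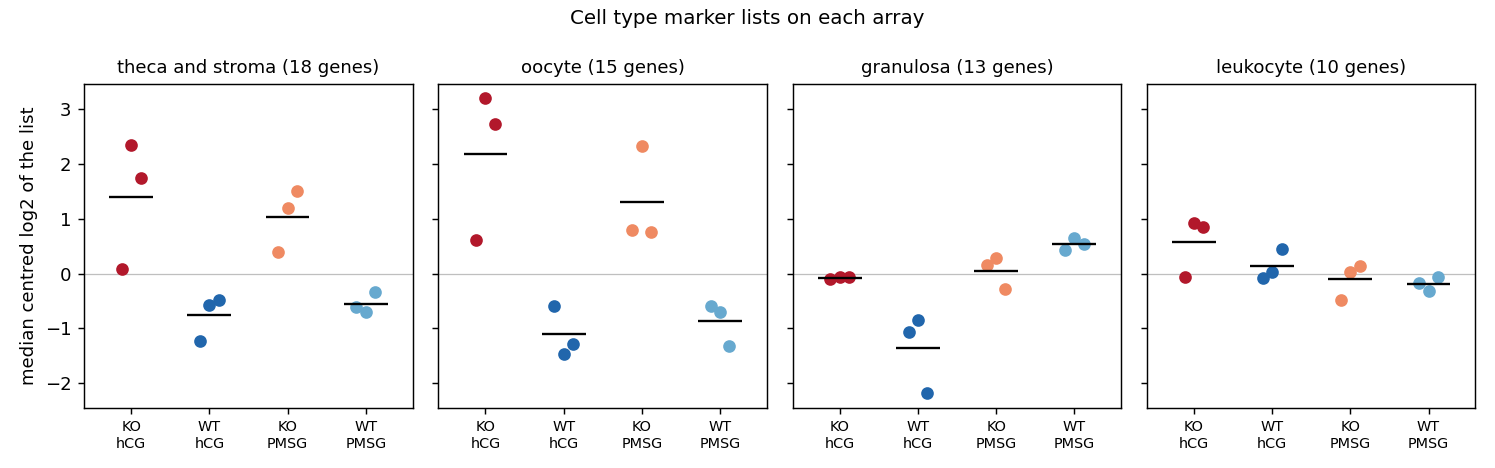
Median centred log2 value of 4 marker lists on each array, with bars for the mean of 3 arrays, in knockout (KO) and wild type (WT) after hCG and after PMSG alone. The theca and stroma and the oocyte lists are above 0 on all 6 knockout arrays and below 0 on all 6 wild-type arrays, and the granulosa list is lowest in wild type after hCG (-1.06, -0.85 and -2.18).

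The rest of the pathway was read from 34 genes, grouped by role. Each gene was represented by its most variable probe set. With hCG on average 3 of the 34 rose, 3 fell and 28 did not pass, where 6.59% and 6.42% of all genes rose and fell. Between genotypes 5 were higher, 2 lower and 27 not called after hCG, and 3 were higher, 0 lower and 31 not called after PMSG, with 2 lower there at an unadjusted p under 0.05 in limma. Over all genes 7.79% were higher and 5.47% lower after hCG, and 1.7% and 1.64% after PMSG, so the share of the 34 lower after hCG was near that of all genes. The medians of the list were 0.049 and 0.041, against 0.0006 and 0.043 over all genes.

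Among the measured surface genes of the pathway, 2 of 5 were higher in the knockout after both treatments (7.79% of all genes after hCG, 1.7% after PMSG). Boc, a co-receptor of hedgehog ligands, read 2.68, 2.21 and 1.88 in the knockout after hCG, against -0.046, -0.67 and -0.12 in wild type after hCG. After PMSG alone it read 0.046, 0.30 and 0.54 in the knockout and -2.29, -3.48 and -2.75 in wild type. No groups overlapped, and the nearest were the knockout after PMSG alone, down to 0.046, and wild type after hCG, up to -0.046. Boc was higher in the knockout by 2.53 ± 0.32 after hCG (SE, limma adjusted p = 0.00119) and by 3.13 ± 0.32 after PMSG (limma adjusted p = 0.00198). It rose with hCG in both genotypes, by 2.56 in wild type (limma adjusted p = 0.00115) and by 1.96 in the knockout (limma adjusted p = 0.0184), and the knockout call was lost in 4 of the 12 fits that left out 1 array. That call was also lost with the number in the array names as a random block (limma adjusted p = 0.065). The average rise was 2.26. On the early arrays, with 1 array per hCG group, the average was 2.65 (limma adjusted p = 0.0432), but neither the wild-type difference of 2.79 (limma adjusted p = 0.0704) nor the knockout difference of 2.50 (limma adjusted p = 0.226) passed. Its other 2 probe sets had average differences of -0.019 and 1.55.

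Gpc3, a cell-surface glypican that binds hedgehog ligands and lowers the signal, read 0.49, 1.81 and 0.77 in the knockout after hCG and -0.98, -1.20 and -0.96 in wild type after hCG. With PMSG alone the arrays gave 0.88, 1.79 and 1.76 in the knockout, against -0.49, -0.63 and -1.03 in wild type. It was higher by 2.07 ± 0.35 after hCG (SE, limma adjusted p = 0.00513) and by 2.19 ± 0.35 after PMSG (limma adjusted p = 0.0129). The PMSG call was lost without replicate 3 of wild type (limma adjusted p = 0.0516). With hCG it differed by -0.39 on average and was not called (limma adjusted p = 0.439). Cdon, Gas1 and Lrp2, the other surface genes measured, were not called in either genotype comparison.

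In the ciliary machinery 3 of 9 genes were higher in the knockout after hCG, where 7.79% of all genes were higher. After PMSG 1 of 9 was higher, where 1.7% of all genes were. Evc and Evc2 encode partners at the base of the cilium that pass the signal on from Smo. Evc read 0.17, 0.23 and 0.17 in the knockout after hCG and -3.04, -2.32 and -2.75 in wild type after hCG. After PMSG it read 0.26, 0.61 and 0.70 in the knockout and -0.17, -0.68 and -1.24 in wild type. With hCG it fell by 1.17 on average (limma adjusted p = 0.00462) and fell by 2.01 in wild type (limma adjusted p = 0.00159), and differed by -0.34 in the knockout (limma adjusted p = 0.848). Knockout exceeded wild type by 2.89 ± 0.26 after hCG (SE, limma adjusted p = 0.000285) and by 1.22 ± 0.26 after PMSG (limma adjusted p = 0.0424), the second call being lost in 8 of the 12 fits that left out 1 array and with the serial number as a covariate (limma adjusted p = 0.0641). Its other probe set differed by 0.37 after hCG. Evc2 fell by 1.14 (limma adjusted p = 0.00186) and the intraflagellar transport gene Ift172 fell by 1.05 (limma adjusted p = 0.00257) with hCG on average. Both were higher in the knockout after hCG, Evc2 by 1.46 (limma adjusted p = 0.00271) and Ift172 by 1.10 (limma adjusted p = 0.00921), the call of Ift172 being lost with the array name number as a random block (limma adjusted p = 0.0652). Gpr161, a ciliary receptor that restrains the pathway through cAMP, rose by 0.69 (limma adjusted p = 0.0274), but the call was lost with the serial number as a covariate (0.49, limma adjusted p = 0.1), with the random block (limma adjusted p = 0.125) and in 5 of the 12 fits that left out 1 array.

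Of 13 kinases and turnover factors of Gli proteins 1 rose with hCG on average, a share near the 6.59% of all genes. Csnk1e, which encodes casein kinase 1 epsilon, read 0.016, 0.98 and -0.11 in the knockout after hCG and 2.44, 1.94 and 3.52 in wild type after hCG. The knockout arrays after PMSG alone ranged from -0.11 to 0.078, and those of wild type from -0.18 to -0.075. It rose with hCG by 1.54 on average (limma adjusted p = 0.00727), a call lost with the array name number as a random block (limma adjusted p = 0.0775), and by 2.77 in wild type (limma adjusted p = 0.00209), and was lower in the knockout after hCG, with a log2 difference of -2.34 ± 0.38 (SE, limma adjusted p = 0.00435). Its other 2 probe sets gave -0.32 and 0.56 there. Btrc, a ubiquitin ligase subunit, was lower in the knockout after hCG (-0.99, limma adjusted p = 0.0498), a call lost in 11 of the 12 fits that left out 1 array. The genes of the cAMP-dependent kinase, Prkaca and Prkacb, were not called, with average hCG differences of 0.31 and -0.50.

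Of the 7 genes of ligand synthesis and release 0 were called by limma in any of the 6 comparisons, with 1 at an unadjusted p under 0.05 after hCG between genotypes and 1 for hCG in the knockout. Over all genes 7.79% were higher and 5.47% lower between genotypes after hCG, so 0 of 7 says little about these genes. The third mammalian ligand gene, Shh, was flat, with hCG differences of -0.083 (knockout) and 0.013 (wild type), and genotype differences of 0.040 after hCG and 0.14 after PMSG. Over the 34 genes 0 passed in the interaction of genotype and hCG, where 1.08% of all genes passed, and 5 had an unadjusted p under 0.05 in limma.

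**Figure D4:**
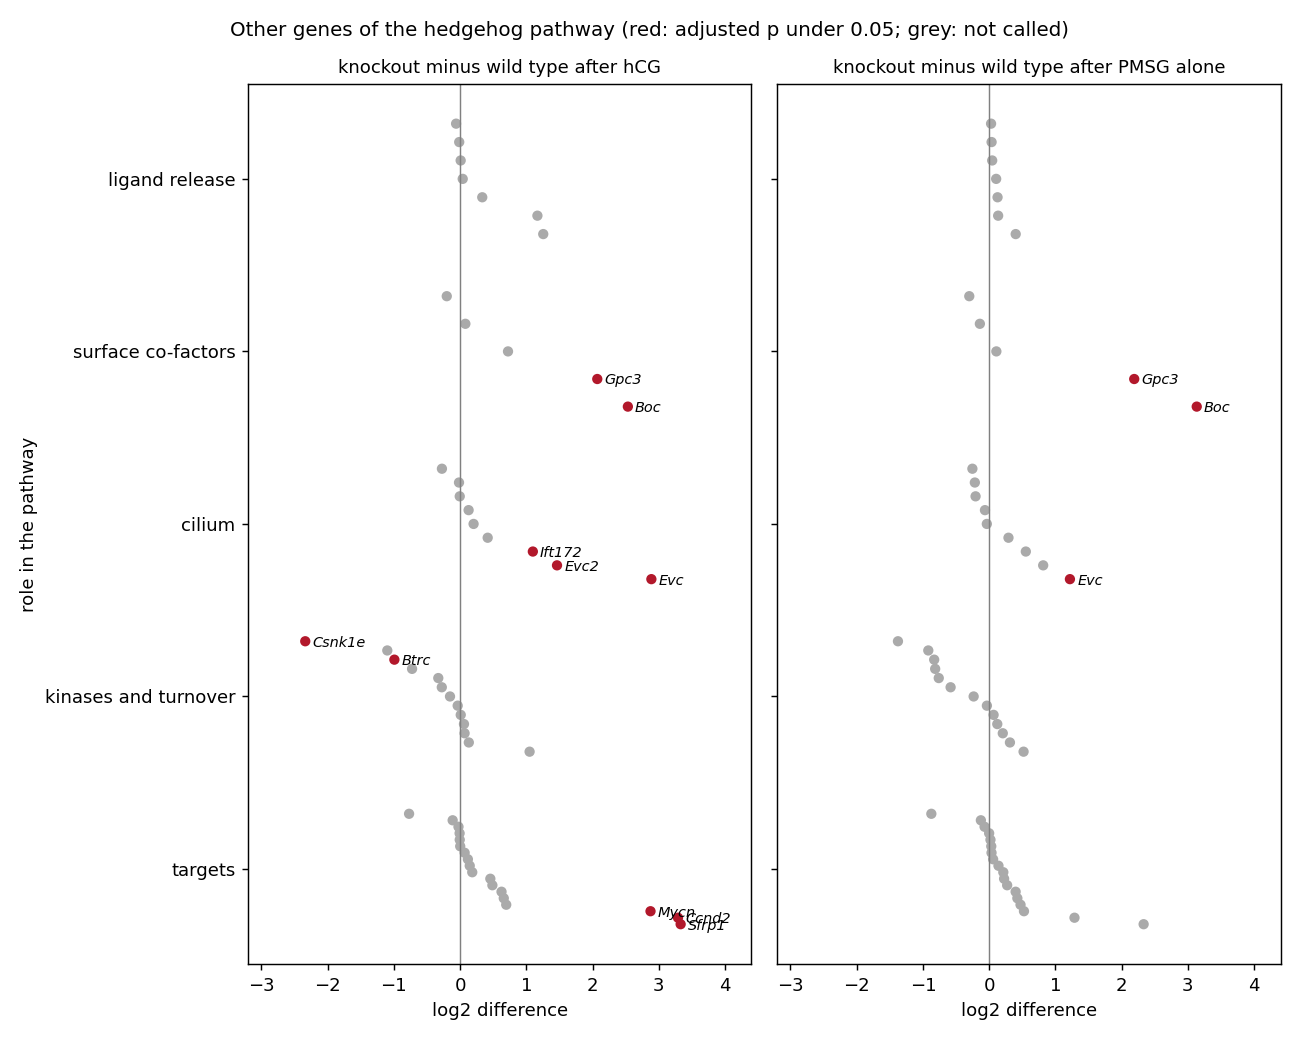
Knockout minus wild type (log2) for the 34 other pathway genes and 18 target genes by role, after hCG on the left and after PMSG alone on the right, with 1 point per gene; red points passed an adjusted p under 0.05. Boc (2.53 and 3.13), Gpc3 (2.07 and 2.19) and Evc (2.89 and 1.22) are red in both panels, and most points lie near 0.

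The list of 18 genes described as hedgehog targets in other tissues held 3 that were higher in the knockout after hCG, 0 lower and 15 not called, where 7.79% of all genes were higher and 5.47% lower. After PMSG 0 of 18 were called by limma, with 3 at an unadjusted p under 0.05. The 3 genes higher after hCG were the cyclin gene Ccnd2 (3.29 ± 0.63, SE, limma adjusted p = 0.009), the transcription factor gene Mycn (2.88 ± 0.43, limma adjusted p = 0.00299) and the WNT antagonist gene Sfrp1 (3.33 ± 0.61, limma adjusted p = 0.00722). Mycn read 0.95, 0.26 and 0.35 in the knockout after hCG and -2.06, -1.51 and -3.49 in wild type after hCG, and with hCG it fell by 1.18 on average (limma adjusted p = 0.037), a call lost in 8 of the 12 fits that left out 1 array, with the serial number as a covariate (limma adjusted p = 0.147) and with the random block (limma adjusted p = 0.27). Sfrp1 read 1.20, 3.35 and 3.22 in the knockout after hCG and -0.67, -0.75 and -0.79 in wild type after hCG, and after PMSG its difference of 2.33 was not called. The mesenchyme genes Foxf1, Foxf2 and Foxl1, targets of hedgehog in gut and lung mesenchyme, differed by at most 0.21 in either genotype comparison. The median of the 18 was 0.17 after hCG and 0.18 after PMSG, against 0.0006 and 0.043 over all genes.

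Genes with the profile most like that of Hhip were ranked by Pearson correlation over the 12 arrays among 16328 genes. They were Rbp4 (r = 0.979), which carries retinol, the growth factor gene Pdgfa (r = 0.958), Gli3 (r = 0.952), Polr1e (r = 0.951) and Hs6st2 (r = 0.935), and the most opposed were Rnf213 (r = -0.966), Ddx60 (r = -0.957) and Dip2c (r = -0.951). For Gli2 they were Fgfr4 (r = 0.971), Fen1 (r = 0.970), Nrsn1 (r = 0.969), Srpx2 (r = 0.965) and Tmem119 (r = 0.957). For Dhh they were Pgls (r = 0.987), Kntc1 (r = 0.982), Samm50 (r = 0.979), Osgep (r = 0.979) and Anapc5 (r = 0.978). The arrays share 4 groups, so any genes that separate the same group are alike by this measure. Among the hedgehog genes Hhip lay nearest Gli3, Gli2 nearest Sufu (r = 0.888) and Smo (r = 0.845), and Dhh nearest Ihh.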

How the data were processed

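RNA of granulosa cells was measured on 12 Affymetrix arrays of 45101 probe sets. The deposited values are log2 expression after GCRMA, per the submitters' processing notes (version not given in the sources). Every probe set has a median near 0 over the 12 arrays (at most 5e-07 in size), a centring of which the labels say nothing. The base of the log was read from the widest probe set, 13.3 units, since natural logs of 16-bit scans span at most 11.1. Columns of other samples numbered 0, and no raw scans were used. Groups follow titles and characteristics.

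Gene names come from the series' probe annotation: 34945 probe sets carry 1 gene, 932 several and 9160 none, besides 64 controls that were dropped. A group-means model was fitted to all 34945 without a filter (limma 3.58.1, R 4.3.3, moderated variances with 1.31 prior degrees of freedom) and tested on simulated data. Adjustment was by Benjamini-Hochberg over all probe sets, with calls at an adjusted p under 0.05. In gene lists each gene is read from its most variable probe set (SD over all arrays), a choice that favours probe sets that respond. P values weigh a difference against the spread between arrays of the same group, and the main fit treats all arrays as independent.

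The hedgehog genes, gene lists and motifs were chosen with earlier results of these data known. For Hhip, Gli2 and Dhh no p is given for hCG within 1 genotype, since those arrays enter the comparisons that chose them. The average over both genotypes uses these arrays too, but weighs the genotypes alike. Genes named beyond the hedgehog genes are list members called in a comparison, Inha, and the 5 nearest profiles of Hhip, Gli2 and Dhh (3 opposed ones of Hhip), without clone names; single uncalled list genes were named after their values were seen. Promoter windows from RefSeq (GRCm38.p6) were held for 8 of the 9 genes. Alternatives were an SD filter, 1 probe set per gene, quantile normalization, array weights, robust moderation, a replicate block, the serial number as a covariate, the array name number as a random block, and leaving out each array. Fits on early or late arrays alone were chosen after seeing the data.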

Additional observations from a re-analysis of the deposited data

Results flagged for a closer look

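On 1 probe set of Sufu the response to hCG ran in opposite directions in the genotypes: hCG minus PMSG alone gave 0.691 for knockout arrays and -0.124 for wild-type arrays, and each array after hCG lay above the mean of the PMSG group in the knockout and below it in wild type. Neither response passed by itself (limma adjusted p = 0.402 for the knockout, and 1 for wild type), and the difference between these responses was not tested. The other probe sets of Sufu gave 0.059 and 0.219 for the knockout, against 0.186 and 0.006 for wild type.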

How the results depend on the processing

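Of 34 tested values of the hedgehog probe sets, 0 reversed while called; 30 sign changes in 13 results concern values called in neither fit. On average hCG 7 of 22 probe sets were called; 14 with array weights, 5 with the serial number as a covariate, 4 with the array name number as a random block, 4 (0 higher, of Dhh, Ihh and Gli1) on early arrays, and 6 to 8 with 1 array left out. Probe sets called over the array, in the order hCG on average, hCG in wild type, hCG in the knockout, knockout against wild type after PMSG and after hCG, and interaction, were 4136, 4245, 419, 1062, 4238 and 325. With 1 probe set per gene, fitted over fewer features, they were 2470, 2531, 283, 638, 2485 and 211. Array weights gave 12554, 10699, 8962, 9207, 9309 and 7385, and the random block 1484, 1962, 314, 2596, 2297 and 227. Early arrays alone, fewer samples, gave 2002, 1937, 254, 158, 1160 and 359; late arrays gave 8721 for hCG in the knockout and 26 for genotype after hCG, and could not be fitted for the others. Leaving out 1 array gave 2785 to 4422, 2274 to 4624, 290 to 478, 527 to 1389, 2488 to 4591 and 142 to 789. Moves of over 1.5 times were, for hCG in wild type, 2592 without wild-type PMSG replicate 2 and 2274 without wild-type hCG replicate 3. For genotype after PMSG they were 627, 621 and 527 without wild-type PMSG replicates 1, 2 and 3, and for genotype after hCG 2750 without knockout hCG replicate 3 and 2488 without wild-type hCG replicate 3. For the interaction they were 191 and 174 without knockout hCG replicates 2 and 3, 789 without wild-type hCG replicate 2, 209 without knockout PMSG replicate 3, and 145 and 142 without wild-type PMSG replicates 2 and 3. For the differences not explained by fewer features or samples the cause was not tested.

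Arrays with the same replicate number correlated with r between -0.120 and 0.270 in their deviations from group means. Within replicate 1 the range was -0.008 to 0.252. Arrays with different numbers gave r between -0.235 and 0.171. These ranges overlap, and the main fit did not take replicate numbers as pairs. The number in the array names is a different one, and arrays sharing it had a consensus correlation of 0.573. Wild type and knockout after PMSG shared it in replicate 1 and, with another value, in replicate 2. Replicates 2 and 3 of wild type after hCG also shared it. The main fit left it out. With the replicate number as a block 4084, 4178, 392, 1016, 4150 and 248 probe sets were called, and 7 of the hedgehog probe sets, the second of Dhh being lost (limma adjusted p = 0.0523) and the fourth of Hhip gained.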
